A study of Mus musculus with 16 samples.

Results

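The genes described here encode the MHC class II antigen presentation machinery. Of 7 listed genes, 6 were matched by Ensembl identifier among the 13006 genes of the deposited liver table: H2-Aa, H2-Ab1, H2-Eb1, Cd74, H2-DMa and H2-DMb1. All 6 passed the filter on low counts. Ciita, the seventh listed gene, which encodes the master coactivator of class II transcription, was not analysed here.

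Polyadenylated RNA of whole liver was sequenced in 16 libraries, 4 in each of 4 groups. All groups share the genotype Humanized PXR-CAR-CYP3A4/3A7, in which xenobiotic receptor and drug-metabolising genes of the mouse are represented by human versions. The CV group was the vehicle control. The EV group was given ethinylestradiol (EE), an estrogen used to induce cholestasis, subcutaneously at 10 mg/kg in propylene glycol for 7 days. The CM group received MI763F, a ligand of the nuclear receptor CAR known by its code name, by gavage at 2.5 mg/kg on 6 days from day 2, without EE. The EM group received both agents at those doses. The labels do not say whether CV and EV mice received the oral vehicle of MI763F, and give no age, sex or background strain. Separate animals are not named for the libraries, and the p-values therefore describe only the spread between samples, which may be technical. In bulk tissue fewer cells of a type and less RNA per cell cannot be told apart.

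Library totals ran from 14115384 to 21473227 estimated counts, and 12918 genes were tested. Hepatocyte markers were present in all 16 libraries, with summed levels of 99930 to 126700 CPM (the count scaled to a fixed library size) in the 8 libraries without EE and 45790 to 65420 CPM in the 8 with EE. Scaling matters for these data: TMM factors, which correct for library composition, ranged from 0.832 to 0.91 in libraries without EE and from 1.1 to 1.23 in the others. With library totals in place of these factors, the median log2 fold change of all genes in EV against CV was 0.49 rather than 0.00.

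MHC class II molecules are heterodimers of an alpha and a beta chain that display peptides from the endosomal pathway to CD4 T cells. H2-Aa and H2-Ab1 encode the alpha and beta chains of the mouse A molecule, and H2-Eb1 encodes the beta chain of the E molecule. Cd74 encodes the invariant chain, which fills the peptide groove and guides new class II molecules to endosomes, and H2-DMa and H2-DMb1 encode the chains of the DM chaperone, which exchanges the invariant chain remnant for peptide. In liver these genes are known mainly from dendritic cells, B cells and macrophages, and their transcription rests on a shared promoter unit of X and Y boxes bound by the RFX complex, CREB and NF-Y.

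The 5 H2 members lie together on chromosome 17, in the order H2-DMa, H2-DMb1, H2-Ab1, H2-Aa and H2-Eb1. RefSeq promoter windows, from 250 bases before to 50 bases after the annotated start on build GRCm38.p6, were found for 4 of the 6 members (H2-Aa, H2-Eb1, H2-DMa and H2-DMb1) and for the related genes H2-DMb2 and H2-Ob. Since all 6 members rose together after EE, the proximal stretches of H2-Aa, H2-Eb1 and H2-DMb1 and of the related H2-Ob and H2-DMb2 are shown with the X box core GCAAC and the Y box core ATTGG, the reverse complement of CCAAT, in capitals. Each stretch lies upstream of the start and is written 5′ to 3′ on the gene's strand.
H2-Aa, chr17:34287857-34287914, minus strand: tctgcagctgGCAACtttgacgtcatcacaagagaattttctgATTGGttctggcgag
H2-Eb1, chr17:34305766-34305822, plus strand: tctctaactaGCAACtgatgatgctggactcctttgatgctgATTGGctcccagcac
H2-Ob, chr17:34238808-34238862, plus strand: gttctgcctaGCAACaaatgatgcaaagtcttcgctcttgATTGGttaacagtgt
H2-DMb1, chr17:34153087-34153144, plus strand: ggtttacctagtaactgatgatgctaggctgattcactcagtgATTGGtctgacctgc
H2-DMb2, chr17:34145116-34145173, plus strand: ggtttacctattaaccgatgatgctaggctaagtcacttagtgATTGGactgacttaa

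GCAAC followed on the same strand by ATTGG, with 25 to 45 bases between their starts, was present in the H2-Aa, H2-Eb1 and H2-Ob windows. The distances between the starts were 33, 32 and 30 bases. The same arrangement was found in 332 of 32851 RefSeq promoter windows of this length, a share of 1.01%. Neither H2-DMb1 nor H2-DMb2 holds those exact GCAAC letters in its stretch, and neither of the 2 H2-DMa windows holds the pair. The H2-DMb1 stretch shares a run of 13 bases, aactgatgatgct, with that of H2-Eb1, beginning at base 13 of each stretch. Searched singly on both strands, CCAAT occurred in 37.4% of all windows, GCAAC in 35.2% and TGACG, the core of a CREB site, in 20.8%. TGACG was found in the H2-Aa window, on both strands, where the 2 matches overlap, and in no other window of these genes. These matches describe letters in a window and are not measured binding.

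The deposited values look already rescaled by gene length, so levels of different genes are given both in CPM and per kilobase of exon, and only an order that holds on both scales is reported. Cd74 was the highest member in CV, at 68.1 to 85.6 CPM or 40.5 to 51.0 CPM per kb. The 3 chain genes came next, at 27.6 to 40.1 CPM or 8.45 to 20.6 CPM per kb. The DM chains were the lowest, at 3.35 to 6.95 CPM or 1.18 to 3.95 CPM per kb. In EV the tiers were again separate, with Cd74 at 143.9 to 235.5 CPM or 85.7 to 140.0 CPM per kb, the chain genes at 45.7 to 102.0 CPM or 15.5 to 36.1 CPM per kb, and the DM chains at 8.77 to 27.5 CPM or 4.92 to 10.6 CPM per kb. Among the chain genes, and between the DM chains, the order of the group means changed with the scale in both groups, and none is given. Exon lengths came from an annotation of an earlier build than the one used for counting.

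After EE alone, all 6 members were higher than in vehicle controls, by 1.70-fold for H2-Eb1 to 3.75-fold for H2-DMa. The DM chains had the largest estimates and H2-Eb1 the smallest. In every member the 4 EV libraries lay above the 4 CV libraries, which was true of 24.6% of all genes tested. All 6 were called higher in edgeR at an adjusted p under 0.05, against a background of 25.5% of genes called higher and 50.4% called in either direction in this comparison. The median log2 fold change of the members was 1.12, and that of all genes tested was 0.00.

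H2-DMa stood at 4.06, 6.95, 6.53 and 6.25 CPM in CV replicates 1 to 4 and at 20.5, 24.3, 27.5 and 16.96 CPM in EV replicates 1 to 4. Every EV library was well above every CV library, and EV replicate 3 was the highest. The log2 fold change was 1.91 ± 0.27 (SE), with an edgeR adjusted p of 3.64e-05. Its partner H2-DMb1 stood at 3.35, 6.65, 3.57 and 4.83 CPM in CV and at 14.5, 14.3, 17.8 and 8.77 CPM in EV. The lowest EV library, replicate 4, came nearest to the highest CV library, replicate 2, without overlap. The log2 fold change of H2-DMb1 was 1.59 ± 0.37 (SE), with an edgeR adjusted p of 0.0022.

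Cd74, the invariant chain, stood at 71.0, 68.1, 85.6 and 83.1 CPM in CV and at 143.9, 167.0, 235.5 and 155.0 CPM in EV. The groups were well separated, and EV replicate 3 was again the highest. Its log2 fold change was 1.19 ± 0.23 (SE), with an edgeR adjusted p of 0.000504.

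H2-Ab1, the A beta chain, stood at 29.0, 27.6, 35.7 and 34.8 CPM in CV and at 57.9, 66.0, 86.1 and 54.8 CPM in EV. The groups did not overlap, and the log2 fold change was 1.06 ± 0.21 (SE; edgeR adjusted p = 0.000624). H2-Aa, the A alpha chain, stood at 34.8, 32.1, 39.9 and 39.5 CPM in CV and at 60.8, 72.4, 102.0 and 58.9 CPM in EV. The EV libraries were again higher without overlap, by 1.01 ± 0.23 (SE) on the log2 scale, with an edgeR adjusted p of 0.00192. H2-Eb1, the E beta chain, stood at 29.8, 28.3, 35.2 and 40.1 CPM in CV and at 53.8, 57.6, 70.3 and 45.7 CPM in EV. Its separation was the narrowest of the 3 chain genes, between CV replicate 4 and EV replicate 4, with a log2 fold change of 0.77 ± 0.21 (SE) and an edgeR adjusted p of 0.00662. With library totals the 6 log2 fold changes ran from 1.24 for H2-Eb1 to 2.39 for H2-DMa, that is, they moved with the median of all genes.

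**Figure D1:**
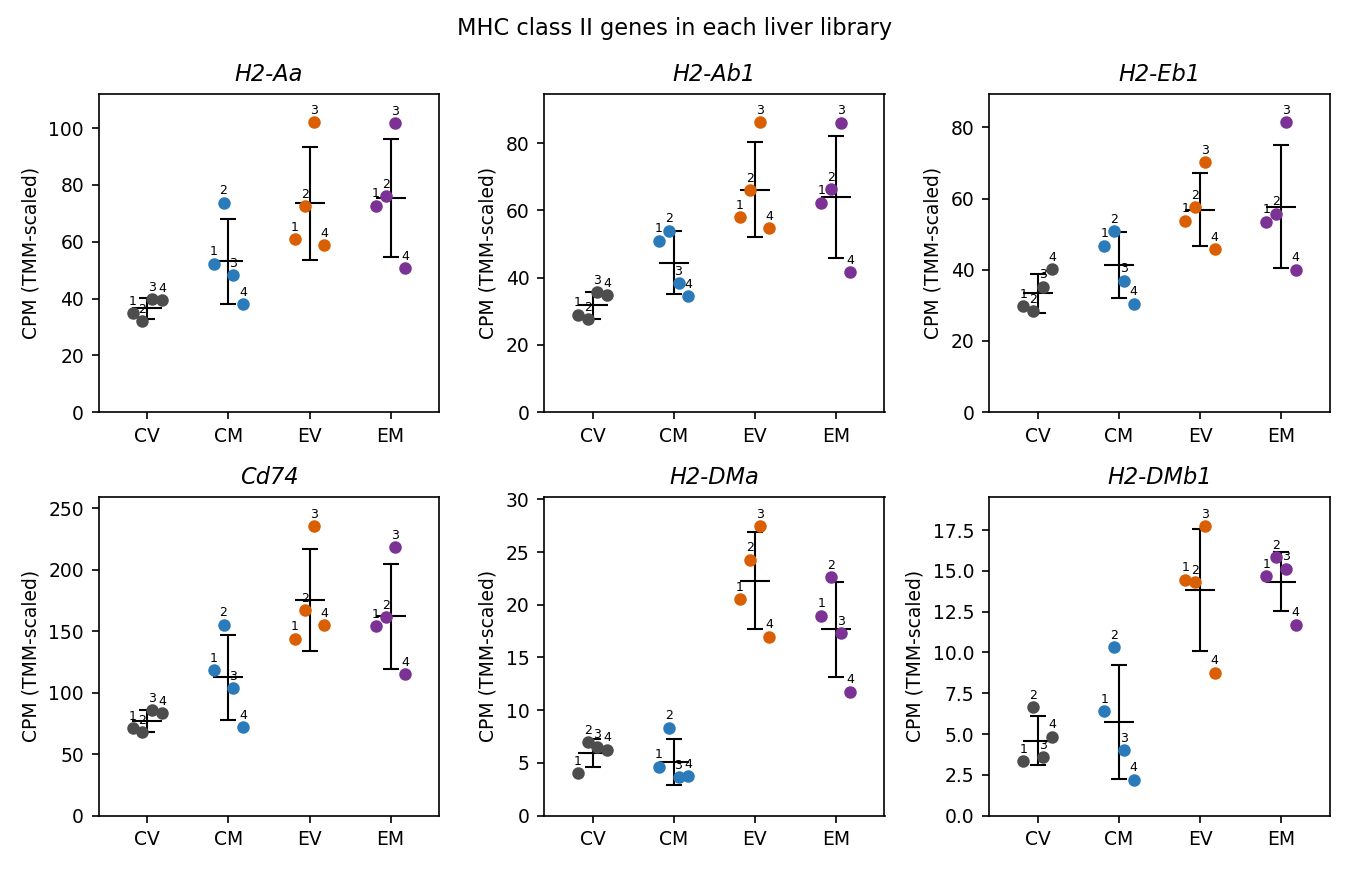
Level of each of the 6 class II genes in each liver library, in TMM-scaled CPM on a linear axis, by group. Points are libraries numbered by replicate, and bars give the group mean and SD (n = 4 libraries per group). In EV all 4 libraries lie above all 4 CV libraries in every panel, and CM replicate 2 is the highest CM library in every panel.

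The related class II genes H2-DMb2, a second DM beta chain, and H2-Ob, a chain of the DO molecule that restrains DM, were the 2 of 6 listed others that were analysed. H2-DMb2 was low in CV, at 0.356, 0.687, 0.825 and 1.41 CPM, and stood at 3.20, 3.06, 4.95 and 4.31 CPM in EV. The groups did not overlap, and the log2 fold change was 2.22 ± 0.35 (SE), with an edgeR adjusted p of 9.35e-05. Between H2-DMb1 and H2-DMb2 the division of reads is uncertain, since 31.4% of the 31-base words of H2-DMb1 transcripts also occur in H2-DMb2. No such word of H2-DMa occurs in another gene. H2-Ob overlapped between CV (0.356 to 2.75 CPM) and EV (2.21 to 5.86 CPM), with a log2 fold change of 1.57 ± 0.68 (SE) that missed the threshold (edgeR adjusted p = 0.0666). Some CV libraries held fewer than 10 estimated counts of either gene, and since such values may be rescaled reads, the number of reads behind them is not known.

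Ratios within a library do not depend on the scaling. The ratio of H2-DMa to H2-Ab1 was 0.14 to 0.252 in CV and 0.31 to 0.368 in EV. All EV libraries lay above all CV libraries for this ratio, which held for 5.21% of genes when each was set against H2-Ab1. The ratio of H2-Eb1 to H2-Ab1 ran the other way, from 0.987 to 1.15 in CV and from 0.816 to 0.929 in EV, without overlap, as for 65.4% of genes. It was below all CV libraries in CM as well, at 0.884 to 0.962, where 14.3% of genes behaved in that way. Cd74 to H2-Ab1 was 2.39 to 2.47 in CV and 2.48 to 2.83 in EV, a narrow separation in the direction that 5.21% of genes took. In EM against CM the ratio of H2-DMa to H2-Ab1 was again higher without overlap, at 0.0913 to 0.154 in CM and 0.201 to 0.342 in EM, as for 5.87% of genes. The other DM chain, H2-DMb1, overlapped when set against H2-Ab1 in both comparisons, at 0.1 to 0.241 in CV, 0.16 to 0.25 in EV, 0.064 to 0.191 in CM and 0.176 to 0.281 in EM. H2-Aa to H2-Ab1 overlapped, at 1.12 to 1.2 in CV and 1.05 to 1.18 in EV.

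In mice that also received MI763F, EE was again followed by higher DM chains, and the 3 chain genes and Cd74 did not pass the test. H2-DMa and H2-DMb1 were called higher in EM against CM, 2 of 6 members, against a background of 19.4% of genes called higher. H2-DMa stood at 4.66, 8.33, 3.63 and 3.73 CPM in CM and at 18.95, 22.6, 17.3 and 11.8 CPM in EM. The groups did not overlap, as for 18.6% of all genes higher in EM, and the log2 fold change was 1.79 ± 0.27 (SE; edgeR adjusted p = 0.000124). H2-DMb1 stood at 6.39, 10.3, 4.01 and 2.21 CPM in CM and at 14.7, 15.9, 15.1 and 11.7 CPM in EM. CM replicate 2 came nearest to EM without reaching it, and the log2 fold change was 1.33 ± 0.36 (SE; edgeR adjusted p = 0.00936).

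The remaining members had log2 fold changes of about 0.5 in EM against CM. Cd74 stood at 118.5, 155.3, 103.4 and 72.1 CPM in CM and at 153.8, 161.1, 218.1 and 114.8 CPM in EM, with overlap and a log2 fold change of 0.53 (95% interval 0.05 to 1.01; edgeR adjusted p = 0.0781). H2-Ab1 stood at 51.0, 54.0, 38.4 and 34.5 CPM in CM and at 62.3, 66.2, 86.0 and 41.7 CPM in EM. Here 3 of the 4 EM libraries lay above every CM library, and EM replicate 4 lay within the CM range. Its log2 fold change was 0.53, with an edgeR adjusted p of 0.056. H2-Aa, at 38.1 to 73.7 CPM in CM and 50.8 to 101.7 CPM in EM, had a log2 fold change of 0.51 with an edgeR adjusted p of 0.093. H2-Eb1, at 30.5 to 50.8 CPM in CM and 40.0 to 81.4 CPM in EM, had a log2 fold change of 0.48 with an edgeR adjusted p of 0.0802. The calls of these 4 genes turned on single libraries and on scaling. All 6 members were called with library totals, where the median of all genes was at 0.38, and without CM replicate 2 or without EM replicate 4, and 4 with CM replicate 2 and EM replicate 1 both left out. With library totals 5890 of 12918 genes were called higher in EM against CM. EM replicate 1 stood apart in recruited monocyte markers, which summed to 752 CPM there and to 429 to 474 CPM in the other EM libraries.

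**Figure D2:**
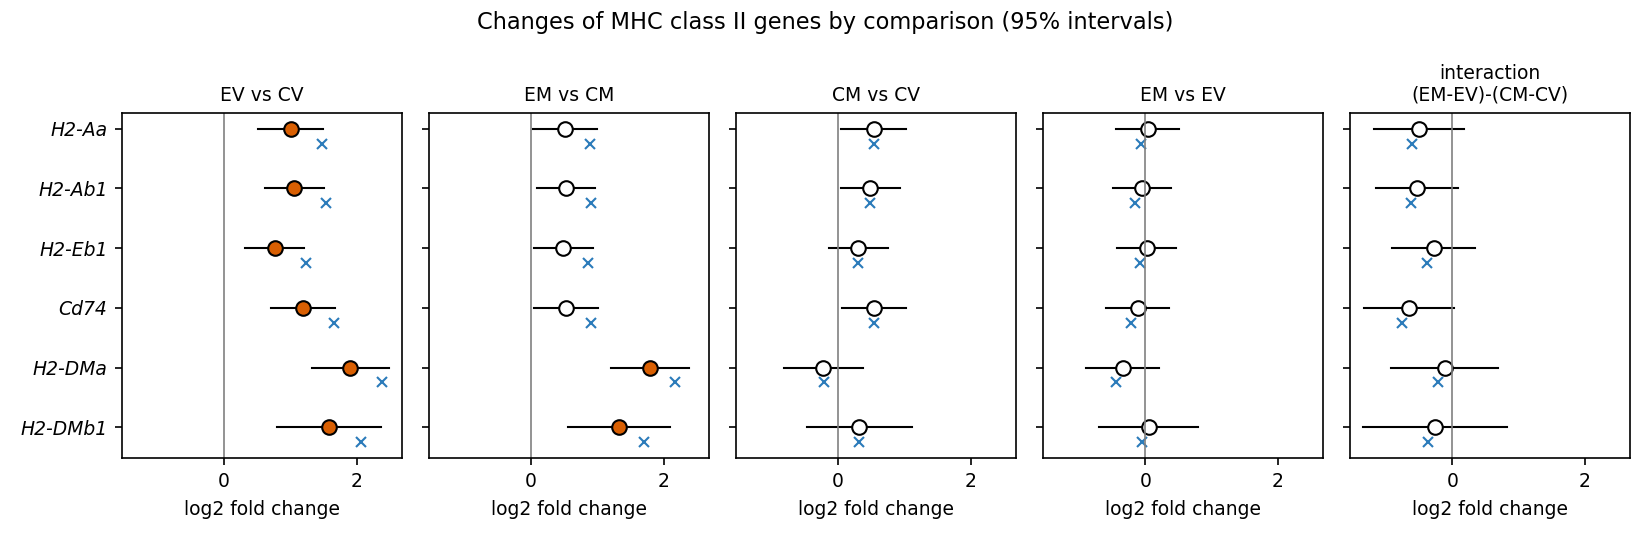
Log2 fold change of each class II gene in 4 comparisons, and the interaction of both agents in the last panel, with 95% intervals as lines. Filled points passed an edgeR adjusted p of 0.05, open points did not, and crosses give the estimates with library totals. All 6 genes are filled in EV vs CV, H2-DMa and H2-DMb1 alone in EM vs CM, and none in CM vs CV, EM vs EV or the interaction. EM vs CV is not drawn.

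MI763F without EE moved no member past the threshold, and the estimates of the chain genes and of Cd74 lay above 0. In CM against CV, 0 of 6 members were called, against 12 genes or 0.0929% of all genes tested in edgeR. Of the members, 3 had an unadjusted edgeR p under 0.05, as did 1362 of the 12918 genes tested. Cd74 had a log2 fold change of 0.55 (95% interval 0.06 to 1.03), with an unadjusted p of 0.0293 and an edgeR adjusted p of 0.403. H2-Aa was at 0.54 (edgeR adjusted p = 0.422), H2-Ab1 at 0.48 (edgeR adjusted p = 0.429) and H2-Eb1 at 0.30 (edgeR adjusted p = 0.665). For H2-Aa, H2-Ab1 and Cd74, CM replicates 1, 2 and 3 lay above every CV library, and CM replicate 4 lay within the CV range. H2-DMa was at -0.22 (95% interval -0.82 to 0.37) and H2-DMb1 at 0.32 (95% interval -0.48 to 1.11), so neither direction was resolved. No member was called by DESeq2 either, nor with any single library left out.

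CM replicate 2, the highest CM library for every member, also stood apart in B cell markers. Their summed level was 612.3 CPM there, against 47.8 to 154.0 CPM in the other CM libraries and 48.2 to 92.5 CPM in CV. Most of that sum was immunoglobulin RNA, with Igkc, the kappa light chain constant region, at 430.8 CPM and Ighm, the mu heavy chain, at 168.0 CPM. Without this library the log2 fold change of CM against CV was 0.35 for Cd74, 0.34 for H2-Aa and 0.38 for H2-Ab1. The part of these B cell transcripts in the result was not tested.

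With EE present, MI763F made no detected difference to the 6 members. In EM against EV, 0 of 6 members were called by edgeR, at any unadjusted p under 0.05 or by DESeq2, against a background of 1.69% of genes called. An unadjusted edgeR p under 0.05 was reached by 1641 of the 12918 genes tested. Group means were 175 ± 41.2 CPM in EV and 162 ± 42.6 CPM in EM (SD, n = 4 each) for Cd74. The difference for Cd74 was -0.11 on the log2 scale, with a 95% interval of -0.59 to 0.36. H2-Ab1 had a difference of -0.05 (95% interval -0.48 to 0.39) and H2-DMb1 of 0.05 (95% interval -0.69 to 0.80). The largest estimate among the members was that of H2-DMa, at -0.34 (95% interval -0.89 to 0.21; edgeR adjusted p = 0.665), with group means of 22.3 ± 4.56 CPM in EV and 17.7 ± 4.52 CPM in EM (SD, n = 4 each). The related H2-DMb2 was not called either, at -0.59 (95% interval -1.29 to 0.10; edgeR adjusted p = 0.484). Its EM libraries, at 2.44 to 2.69 CPM, all lay below its EV libraries, at 3.06 to 4.95 CPM. The share of all genes lying below in this way was not determined.

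With both agents, all 6 members were called higher than in vehicle controls, as were 20.7% of all genes in EM against CV. H2-DMb1 was higher by 1.64 ± 0.37 (SE; edgeR adjusted p = 0.00236) and H2-DMa by 1.57 ± 0.27 (SE; edgeR adjusted p = 0.000312) on the log2 scale. The invariant chain Cd74 was higher by 1.07 ± 0.23 (SE; edgeR adjusted p = 0.00155), H2-Aa by 1.04 ± 0.23 (SE; edgeR adjusted p = 0.00203) and H2-Ab1 by 1.01 ± 0.21 (SE; edgeR adjusted p = 0.00127). H2-Eb1 had the smallest difference, 0.79 ± 0.21 (SE; edgeR adjusted p = 0.00721), and its EM replicate 4, at 40.0 CPM, lay just under CV replicate 4, at 40.1 CPM. In the other 5 members all EM libraries lay above all CV libraries, as in 19.4% of genes. This comparison shares its CV libraries with EV against CV, so the 2 sets of values are not independent.

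Whether the response to EE differed with the ligand was tested as an interaction, and 0 of 6 members passed (0.132% of all genes did). An unadjusted edgeR p under 0.05 was reached by 1759 of the 12918 genes tested and by 0 members. All 6 estimates lay below 0 and rest on the same 16 libraries, and those of H2-DMa and H2-DMb1 were 0.24 and 0.20 without CM replicate 2. Cd74 had the largest, -0.66 (95% interval -1.34 to 0.02; edgeR adjusted p = 0.381), followed by H2-Ab1 at -0.53 (95% interval -1.15 to 0.09; edgeR adjusted p = 0.447) and H2-Aa at -0.50 (95% interval -1.18 to 0.18; edgeR adjusted p = 0.52). H2-DMa was at -0.11 (95% interval -0.92 to 0.70). The passing of the chain genes in EV against CV and not in EM against CM is therefore not shown to be a difference between them. H2-DMb2 had an interaction of -1.54 (95% interval -2.56 to -0.51), with an edgeR adjusted p of 0.166.

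Between libraries of a group the members varied together, the DM chains less closely with the others. Over the 16 libraries the 3 chain genes and Cd74 had pairwise Pearson correlations of 0.962 to 0.985 in log2 CPM. After each group's mean was subtracted these were still 0.927 to 0.976. With H2-DMa and H2-DMb1 the same 4 genes had correlations of 0.785 to 0.864, and 0.581 to 0.721 after subtraction. H2-DMa and H2-DMb1 correlated with each other at 0.917 and 0.797. These are descriptions over libraries that share scaling factors and group structure. The DM chains also had the lowest counts of the members, and whether noise at low counts lowered their correlations was not tested. The mean centred log2 level of the 3 chain genes and Cd74 was highest in EM replicate 3 (0.839) and EV replicate 3 (0.816) and lowest in CV replicate 2 (-0.784). CM replicate 4 was at -0.595, within the CV range of -0.784 to -0.428, and EM replicate 4 at -0.158, below CM replicates 1 and 2.

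Among 11198 ranked genes, those most like this class II average over the 16 libraries, members aside, were Gtpbp2 (Pearson r = 0.918), Rasgef1b (0.915), Plekhm2 (0.904), Apoa4 (0.9), Zcchc10 (0.897), Fnbp1 (0.897), Mpp1 (0.896) and Stxbp2 (0.892). H2-DMb1 came at 0.852 and H2-DMa at 0.812, below these 8 genes. After group means were subtracted, the genes most alike included Soat1 (0.83), Bpgm (0.824) and Ighg2b, an immunoglobulin heavy chain gene (0.809), as well as Tsc22d2, 4933434E20Rik, Dnajc16 and Gtpbp2 (0.808 to 0.803). In the same measure Ighm stood at 0.768, Igkc at 0.76, the B cell receptor gene Cd79b at 0.666 and the Kupffer cell gene Clec4f at 0.634. The leukocyte gene Ptprc stood at 0.435, the myeloid transcription factor gene Irf8 at 0.294 and the macrophage gene Adgre1 at 0.148. Before subtraction the order was another, with Cd79b at 0.857, Ptprc at 0.805, Clec4f at 0.794 and Irf8 at 0.748. Adgre1 was then at 0.713, Ighm at 0.668 and Igkc at 0.539.

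Markers of the cell types that carry class II moved with EE. Of 8 pan-leukocyte markers all 8 were called higher in EV against CV, with a median log2 fold change of 2.07, and their summed level was 94.7 to 216.8 CPM in CV and 510.6 to 621.1 CPM in EV. Of 14 Kupffer cell and macrophage markers 11 were called higher and 0 lower, with a median of 2.07. Among them Csf1r, the macrophage growth factor receptor, was at 2.75 ± 0.25 (SE) on the log2 scale, and Clec4f, a Kupffer cell lectin, at 1.93 ± 0.16 (SE). The summed Kupffer cell and macrophage level was 367.6 to 893.9 CPM in CV and 2189 to 2594 CPM in EV. Their part in the class II result was not tested.

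The dendritic and B cell markers moved in the same direction. Of 8 analysed dendritic cell markers, of 14 listed, 6 were called higher in EV against CV and 0 lower, with a median log2 fold change of 1.57. Itgax, the integrin CD11c, was at 2.90 ± 0.39 (SE), Wdfy4, needed for cross-presentation, at 2.79 ± 0.29 (SE) and Irf8, a transcription factor of dendritic cells and other myeloid cells, at 1.48 ± 0.20 (SE). Their summed level was low, at 15.2 to 23.2 CPM in CV and 39.0 to 57.9 CPM in EV. Of 8 analysed B cell markers, of 12 listed, 6 were called higher and 0 lower, with a median of 2.09. Cd79a and Cd79b, the signalling chains of the B cell receptor, were at 2.46 ± 0.49 (SE) and 2.33 ± 0.37 (SE). Igkc and Ighm, which had the highest levels of the list, were at 0.91 and 1.36 and were not called (edgeR adjusted p = 0.237 and 0.0789). The B cell sum, in which these immunoglobulin genes weigh most, was 48.2 to 92.5 CPM in CV and 128.4 to 251.3 CPM in EV. EV replicate 3 was the highest, and the part of these cells was not tested either. In EM against CM the calls were 7 of 8 pan-leukocyte, 13 of 14 Kupffer cell and macrophage, 6 of 8 dendritic and 3 of 8 B cell markers higher, with none lower, while 0 markers of these lists were called in CM against CV or EM against EV. Of the B cell estimates in EM against CM, 6 of 8 lay above 0. Igkc and Ighm lay below it, at -1.44 and -1.15 (edgeR adjusted p = 0.0816 and 0.148). The B cell sum was 47.8 to 612.3 CPM in CM and 80.3 to 143.5 CPM in EM.

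Of the remaining marker lists in EV against CV, 8 of 9 recruited monocyte, 6 of 6 neutrophil, 6 of 11 sinusoidal endothelial and 1 of 5 T and NK cell markers were called higher, and 7 of 9 hepatocyte markers lower and 1 higher. Of 5 analysed cholangiocyte markers, 2 were called higher and 1 lower, and 2 higher and 0 lower with library totals. Spp1, called higher, is counted both there and among the recruited monocyte markers. With library totals the endothelial markers called higher were 10 of 11 and the T and NK cell markers 2 of 5, and of the hepatocyte markers 4 were called lower and 2 higher. That scaling gave 7048 of 12918 genes called higher and 1329 lower.

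Set against the pan-leukocyte sum of the same library, the chain genes had lower ratios in most libraries with EE, and the DM chains overlapped. H2-Ab1 had a ratio of 0.127 to 0.306 in CV and 0.0948 to 0.152 in EV, overlapping only through CV replicate 2, and of 0.255 to 0.316 in CM and 0.0979 to 0.191 in EM, without overlap. H2-Eb1 was lower without overlap in both comparisons, and H2-Aa and Cd74 in EM against CM. Of all genes, 82.2% lay lower without overlap in EV against CV and 78.8% in EM against CM. H2-DMa overlapped in both comparisons, at 0.0321 to 0.0481 in CV, 0.0332 to 0.0485 in EV, 0.0241 to 0.041 in CM and 0.0298 to 0.0479 in EM. H2-DMb1 overlapped too, at 0.0263 to 0.0353 in CV and 0.0172 to 0.0314 in EV. The overlap depended on the sum. Against Ptprc alone, a marker in that sum, H2-DMa was 1.39 to 2.21 in CV and 0.85 to 1.3 in EV. For H2-DMb1 these were 1.08 to 1.57 and 0.439 to 0.842. Both lay lower without overlap, as did the other members and 88.1% of genes. In EM against CM both DM chains overlapped against Ptprc as well.

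**Figure D3:**
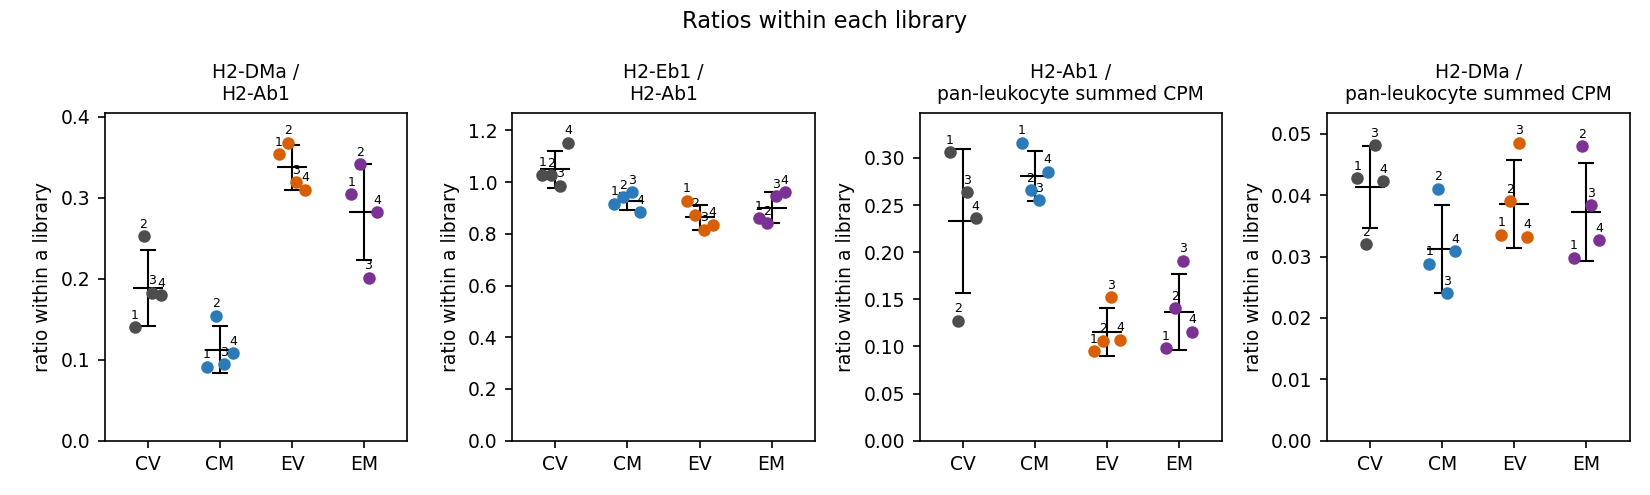
Ratios within each library, by group, for H2-DMa and H2-Eb1 against H2-Ab1 and for H2-Ab1 and H2-DMa against the summed CPM of 8 pan-leukocyte markers. Points are libraries numbered by replicate, and bars give the mean and SD (n = 4). H2-DMa per H2-Ab1 is higher in every EV than in every CV library, while H2-DMa per summed leukocyte marker level overlaps in all groups.

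Genes of class II processing and turnover were mostly higher too. Besides genes that prepare peptides, the list holds genes of class II turnover and of Cd74 signalling. Among the latter, Cxcr2 is also counted in the neutrophil markers. Of 13 analysed genes of class II processing and turnover, of 15 listed, 8 were called higher in EV against CV and 1 lower, with a median log2 fold change of 0.96. With library totals these were 12 higher and 0 lower, with a median of 1.45. Of all 12918 genes, 7048 were called higher and 1329 lower with library totals. Ctss, cathepsin S, which trims the invariant chain, was at 50.7 ± 13.4 CPM in CV and 275 ± 29.1 CPM in EV (SD, n = 4 each). Its log2 fold change was 2.44 ± 0.22 (SE; edgeR adjusted p = 3.84e-07). Ifi30, the lysosomal thiol reductase GILT, was at 2.51 ± 0.25 (SE) and Lgmn, the endosomal protease legumain, at 1.99 ± 0.18 (SE). Ctsb, cathepsin B, rose by less, 0.96 ± 0.11 (SE). Ctsz fell by 0.26 (SE 0.09) with TMM factors and was higher by 0.22 with library totals.

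Costimulation genes, which antigen-presenting cells use to activate or restrain T cells, were all called higher in EV against CV, 5 of 5 analysed. Their median log2 fold change was 2.30. Cd80 was at 2.79 ± 0.41 (SE), Cd86 at 2.70 ± 0.42 (SE), Icosl at 2.30 ± 0.39 (SE) and Cd40 at 1.81 ± 0.42 (SE). In EM against CM 4 of the 5 were called higher, with a median of 1.69. Cd274, which encodes an inhibitory ligand, was not called there (edgeR adjusted p = 0.0766).

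The transcription factors and coactivators of class II promoters showed no common direction. Of 12 analysed, 2 were called higher and 4 lower in EV against CV with TMM factors, and 6 higher and 2 lower with library totals. Of all genes, 25.5% were called higher and 24.9% lower with TMM factors, and 7048 of 12918 higher and 1329 lower with library totals. Of the RFX subunits, which bind the X box, Rfx5 was at -0.33 ± 0.19 (SE; edgeR adjusted p = 0.172), Rfxap at -0.38 ± 0.31 (SE; edgeR adjusted p = 0.333) and Rfxank at 0.39 ± 0.20 (SE; edgeR adjusted p = 0.124). Rfx5 and Rfxap lay above 0 with library totals. Of the NF-Y subunits, which bind the Y box, Nfya rose from 5.32 ± 0.54 to 10.8 ± 1.88 CPM (SD, n = 4 each), by 1.02 ± 0.15 (SE; edgeR adjusted p = 4.45e-05). Nfyb fell by 0.90 (SE 0.17; edgeR adjusted p = 0.000431), and Nfyc fell by 0.35 with TMM factors but was at 0.14 with library totals. The coactivator Kat2b fell by 0.91 (SE 0.14), and Smarca4, the ATPase of chromatin remodelling complexes, rose by 0.52 (SE 0.08). Crebbp, a histone acetyltransferase, fell by 0.70 (SE 0.23; edgeR adjusted p = 0.0188) with TMM factors, and was not called with library totals (edgeR adjusted p = 0.431).

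MHC class I genes, which most cells of the body express, had no common direction. Of 18 analysed class I presentation genes 4 were called higher and 7 lower in EV against CV, where 24.9% of all genes were called lower. The median log2 fold change was -0.12, and 10 genes were higher and 2 lower with library totals. That scaling gave 7048 of all 12918 genes called higher and 1329 lower. B2m, the common light chain of class I, stood at 2796 ± 114 CPM in CV and 1289 ± 120 CPM in EV (SD, n = 4 each). It fell by 1.12 (SE 0.09; edgeR adjusted p = 1.59e-07), and by 0.63 with library totals. H2-T23, a nonclassical class I gene, fell by 0.85 (SE 0.09), and H2-K1, a classical heavy chain, by 0.74 (SE 0.12), a call lost with library totals (edgeR adjusted p = 0.0661). Pdia3, which helps to load peptides onto class I, rose by 0.61 (SE 0.12; edgeR adjusted p = 0.000592). Nlrc5, the class I counterpart of Ciita, was at -0.17 ± 0.21 (SE; edgeR adjusted p = 0.55). The ratio of H2-Ab1 to B2m, which needs no scaling, was 0.00954 to 0.0126 in CV, 0.0139 to 0.0238 in CM, 0.0412 to 0.0598 in EV and 0.0262 to 0.0571 in EM. The libraries with EE all lay above those without. Since B2m itself fell, a ratio to it rises also for a gene that did not change. The share of all genes that separate in this way when set against B2m was not determined.

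Interferon gamma is the main known inducer of class II, acting through Ciita. Of 20 analysed genes of this pathway and its targets, of 21 listed, 6 were called higher and 4 lower in EV against CV. Their median log2 fold change was 0.22. Among all genes 25.5% were called higher and 24.9% lower, which is near the list's own shares. With library totals 12 of the 20 were called higher and 1 lower, against 7048 higher and 1329 lower of all 12918 genes. The receptor chains Ifngr1 and Ifngr2 were at 1.60 ± 0.13 (SE) and 1.09 ± 0.17 (SE), and Icam1, an adhesion molecule, at 1.72 ± 0.19 (SE). Igtp, an interferon-inducible GTPase, fell by 0.89 (SE 0.15), and by 0.41 with library totals.

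**Figure D4:**
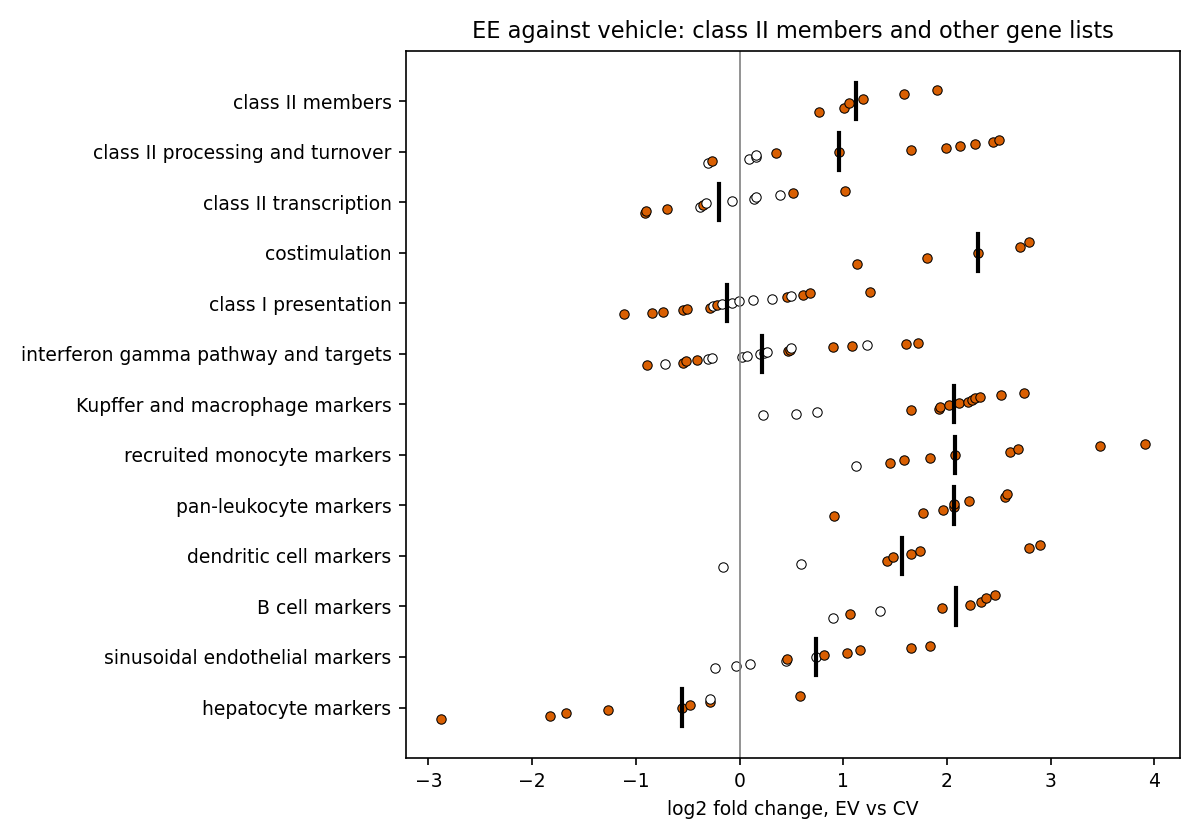
Log2 fold change in EV against CV of the 6 class II genes and of genes of related pathways and cell type markers. Each point is a gene, filled where the edgeR adjusted p was under 0.05, and the vertical bar is the list's median. The class II median is 1.12, below those of the pan-leukocyte (2.07) and Kupffer cell and macrophage markers (2.07) and above that of class I presentation (-0.12).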

How the data were processed

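The authors deposited 1 table of estimated counts per gene for 16 liver libraries. Per the labels' protocols, RNA was enriched for poly(A) and made into libraries with the NEBNext Ultra kit. GRCm39, STAR and Salmon are named in the submitters' processing notes. Their versions, the annotation and strand use were not given in the sources used here. All deposited estimated counts are whole numbers, but small values are not raw reads. In genes at 0 in some library, the lowest nonzero value had a median of 51 over 330 genes with under 500 exon bases and of 1 over 49 genes with over 4000, as for values rescaled by length.

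Groups came from sample titles. Symbols and exon lengths came from GENCODE M21, an earlier build, and matched 12692 identifiers. Genes were filtered with filterByExpr, scaled with TMM factors and tested by edgeR 4.0.16 quasi-likelihood (R 4.3.3, robust fit to all 16 libraries). Benjamini-Hochberg adjustment ran over 12918 genes, with a threshold of 0.05. The biological coefficient of variation was 0.284, and at most 3.24% of values were equal between any pair of libraries. CPM values use the TMM factors. Alternatives were RLE factors, library totals, no filter, 1 CPM in 8 libraries, DESeq2 1.42.0, limma 3.58.1 with a trend, only the groups compared, a replicate block and each library left out. The joint omission of CM replicate 2 and EM replicate 1 was chosen after seeing the data. The tests were first run on simulated counts with known changes.

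The members and lists were chosen with earlier results of these data known. Named genes were the members, all analysed other class II and class II transcription genes, up to 4 called genes of each further list by p in EV against CV, and the 8 genes most like the class II average. The text prints some of these, others are not reported here, and a few further genes (Nlrc5, Ptprc, Adgre1, Ighm, Igkc and Ctsz) were named after their values were seen. Shared 31-base words were counted over GENCODE M21 transcripts. Figures were drawn with matplotlib 3.10.9.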

Additional observations from a re-analysis of the deposited data

Results flagged for a closer look

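In groups of 4 libraries, 6 summed levels had 1 library far from the other 3, by Dixon's criterion at 95%. There were 96 such sums and gene levels examined, and chance alone gives about 1 in 20. The other class II genes (H2-DMb2 and H2-Ob) summed to 10.8 CPM in EV replicate 3, against 6.51 to 7.01 CPM in the other EV libraries, and the 4 members that move most alike were also highest there. Dendritic cell markers summed to 23.2 CPM in CV replicate 2, against 15.2 to 16.4 CPM in the rest of CV. They summed to 49.9 CPM in EM replicate 1, against 38.1 to 39.8 CPM in the other EM libraries. Recruited monocyte markers were also highest in EM replicate 1, at 752 CPM against 429 to 474 CPM. Kupffer cell and macrophage markers were lowest in EV replicate 4, at 2190 CPM against 2530 to 2590 CPM. Hepatocyte markers were highest in CM replicate 2, at 127000 CPM against 99900 to 100000 CPM.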

How the results depend on the processing

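In EV against CV and in EM against CV all 6 members were called under each of the 9 other settings and with each of the 16 libraries left out. In CM against CV, EM against EV and the interaction, 0 were called under any setting that was run. In EM against CM the 2 called members became 6 with library totals, 3 with DESeq2 and 4 with CM replicate 2 and EM replicate 1 both left out, and 2 to 6 with 1 library left out. Of all genes, 4917 were called in EM against CM, and 6825 with library totals. The counts of all genes called were 12 in CM against CV (221 with DESeq2, 2 with only the groups compared, 4 to 39 with 1 library left out), 218 in EM against EV (127 with library totals, 559 with DESeq2, 606 with both libraries left out, 36 to 445 with 1 left out) and 17 for the interaction (26 with library totals, 450 with DESeq2, 30 with limma, 157 with both left out, 10 to 208 with 1 left out).

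Shared replicate numbers did not pair the libraries. None of 24 same-number pairs correlated above 0.1 (-0.0524 to 0.0957), and 4 of 16 libraries correlated best with their own number. With a replicate block, 6393 genes were called in EV against CV, 4812 in EM against CM, 6 in CM against CV, 260 in EM against EV, 5156 in EM against CV and 79 for the interaction. The block changed no member's call.

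Some small estimates changed sign. In EM against EV with library totals H2-Aa was at -0.066, H2-Eb1 at -0.083 and H2-DMb1 at -0.051, and H2-Eb1 was at -0.0094 with limma. With CM replicate 2 and EM replicate 1 left out, CM against CV was -0.14 for H2-DMb1 and -0.47 for H2-Ob, and the interaction was 0.20 for H2-DMa and 0.19 for H2-DMb1. With library totals EV against CV was 0.15 for Rfx5, 0.11 for Rfxap, 0.14 for Nfyc and 0.41 for Carm1. With 1 library left out, CM against CV ran from -0.14 to 0.59 for H2-DMb1 and from -0.47 to 0.70 for H2-Ob. EM against EV ran from -0.14 to 0.23 for H2-Aa, -0.22 to 0.11 for H2-Ab1, -0.19 to 0.16 for H2-Eb1, -0.11 to 0.19 for H2-DMb1 and -0.29 to 0.057 for Cd74. The interaction ran from -0.25 to 0.24 for H2-DMa, -0.54 to 0.20 for H2-DMb1 and -1.14 to 0.033 for H2-Ob. EV against CV ran from -0.0030 to 0.19 for Ep300 and -0.15 to 0.015 for Carm1. The cause was not tested in any of these cases.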
